A study of Mus musculus with 4 samples.

Results

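Cobl (cordon-bleu, ENSMUSG00000020173) was followed in single cells of 3 mouse cell lines, as 1 of the 33565 genes counted. It was chosen by its measured levels: among genes of at least 50 CPM (UMIs scaled to a total of 1000000) in mESCs, it had the next-highest ratio of mESC CPM plus 1 to the higher CPM plus 1 of the other lines, after Zfp42. The level of Cobl in each line is therefore a description, and the values that chose it support nothing further. Barcodes counted as cells where they held 1000 UMIs or more, of which no more than 20% were mitochondrial, which left 2137 mESCs, 2323 N2a cells and 2037 NIH/3T3 cells, or 6497 cells in all.

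Cobl codes for a protein that binds actin monomers through WH2 domains and starts new actin filaments. It is known from neurons, where it acts in dendrite branching, and from the microvilli and sensory cells of epithelia. Its known partners include the membrane-bending Pacsin (syndapin) proteins, the actin-binding protein Dbnl (Abp1), calmodulin and the arginine methyltransferase Prmt2. Each value below is RNA, since protein was not measured.

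The lines were N2a (Neuro-2a), which derives from a mouse neuroblastoma, NIH/3T3, which derives from fibroblasts of mouse embryos, and E14TG2a embryonic stem cells (mESCs). N2a and NIH/3T3 cells were grown in DMEM with fetal bovine serum, whereas mESCs were grown on gelatin in DMEM with serum, leukemia inhibitory factor, the GSK3 inhibitor CHIR99021 and the MEK inhibitor PD0325901. The labels name no genetic change and no treated group with a control, and line and medium cannot be told apart. Cells of each line were enclosed in hydrogel capsules and received their BC1, the first part of the cell barcode, in columns of a plate that held no other line. All 3 lines were then sequenced together as 1 CapSeq library. Each line was thus 1 sample with 32 BC1 sequences, which are aliquots and not replicates. No test between lines was made, and 95% intervals are exact Poisson for sums of UMIs and exact binomial for shares of cells, covering counting error only.

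The 3 line matrices held between 13505027 and 20662884 UMIs, with a median of 4803 UMIs per cell in mESCs, 6185 in N2a and 4863 in NIH/3T3. The line matrices shared 0 barcodes, which the splitting of reads by BC1 fixes. The labels were checked with lists of line markers. All 8 mESC markers were highest in mESCs, with Pou5f1 at 57.8 CPM against 0.223 in N2a and 0.0855 in NIH/3T3. All 8 fibroblast markers were highest in NIH/3T3 and 6 of 8 sympathoadrenal markers in N2a, but Dbh, the noradrenaline-forming enzyme among the latter, was near 0 in N2a (16 UMIs). In mESCs, Col3a1 had 1 UMI and Dbh had 0.

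The Cobl gene lies on the minus strand of chromosome 11 at chr11:12186608-12415229 in GRCm39. It spans 228.6 kb, of which 12.74 kb is exon in any annotated transcript. No other counted gene starts within 500 kb on its upstream side.

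Cobl was abundant in mESCs and close to absent in both other lines. The mESCs held 14963 Cobl UMIs, which is 1214 CPM (1195 to 1234). N2a held 20 UMIs, which is 1.11 CPM (0.680 to 1.72), and NIH/3T3 held 15, which is 1.28 CPM (0.718 to 2.11). The intervals of N2a and NIH/3T3 overlapped, so these neighbours in the order of levels did not differ beyond counting error, and they stood at 0.0918% and 0.106% of the mESC level. Of all Cobl UMIs in cells, 99.8% were in mESCs. By the ratio that chose it, Cobl stood at 532 after Zfp42 at 600, and L1td1 followed at 409.

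At least 1 Cobl UMI was found in 90.5% of mESCs (89.1% to 91.7%), in 0.818% of N2a cells (0.493% to 1.27%) and in 0.736% of NIH/3T3 cells (0.413% to 1.21%). No cell held more than 53 UMIs in mESCs, 2 in N2a or 1 in NIH/3T3. When each cell was thinned to 1000 UMIs, the shares were 65.0% in mESCs, 0.0430% in N2a, from 1 cell, and 0.147% in NIH/3T3, from 3 cells. Stem cell genes that these lines should lack were at 0.223 CPM (Pou5f1) to 9.63 CPM (Tfcp2l1) in N2a and at 0.0855 CPM (Pou5f1) to 11.4 CPM (Dppa5a) in NIH/3T3. The level of Cobl lay within these ranges, and the few Cobl UMIs were not read as expression. The ranges are wide and come from genes of unlike level in mESCs, so they cannot tell background from low expression.

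The level in mESCs was somewhat higher in deeper cells. Cobl was at 1136 CPM (1043 to 1235) in mESC barcodes of 100 to 999 UMIs, just under the limit for a cell, and at 1040 CPM (943 to 1143) in those of 1000 to 1999 UMIs, just above it. It was at 1184 CPM in cells of 2000 to 3999 UMIs, 1148 in cells of 4000 to 7999, 1294 in cells of 8000 to 15999 and 1284 (1215 to 1356) in the 50 cells of at least 16000. Barcodes with fewer than 100 UMIs carried Cobl in every line's matrix, at 1096 CPM in mESCs and 4.88 CPM (2.23 to 9.25) in N2a. In NIH/3T3 these barcodes were at 15.4 CPM (9.56 to 23.6), above the level in cells.

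All 32 BC1 sequences of mESCs stood above all 64 of the other lines. In mESCs they ranged from 821 CPM (699 to 958, 52 cells) through a median of 1224 to 1432 CPM, with a mean of 1198 CPM ± 135 (SD over 32 aliquots), where counting alone would give an SD of 58.1 if Cobl UMIs were independent. The interval of 20 of the 32 held the level of the line. In N2a the BC1 sequences ranged from 0 through a median of 0 to 6.48 CPM, and in NIH/3T3 from 0 through 0 to 5.64 CPM, with 20 of 32 at 0 in each of these lines.

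**Figure D1:**
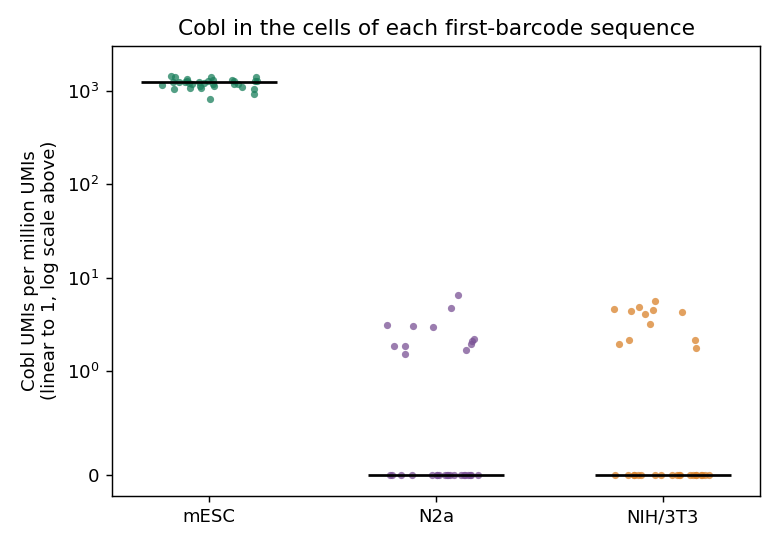
Cobl CPM (vertical axis, linear to 1 and log above) in the cells of each BC1 sequence, with 32 points per line and a bar at the median. The mESC points sit between 821 and 1432 CPM and the highest N2a point is at 6.48 CPM, with 20 points at 0 in each of N2a and NIH/3T3.

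The other actin nucleators were mostly present in all lines, with exceptions such as Fmn2. Of 36 listed nucleators and nucleation-promoting proteins, 30 reached 10 CPM in a line. Of these, 4 were at least 2-fold higher in mESCs than in both other lines, where 11.6% of all 11366 genes of at least 10 CPM were, and 4 were at least 2-fold lower, where 11.3% of all genes were. The remaining 22 lay between, meaning not 2-fold above or below both other lines, though some differed 2-fold from 1 of them. With 1 sample per line these folds have no replicate check, and the counts were near the background shares.

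Among the proteins that nucleate through WH2 repeats like Cobl, Spire1 was at 44.6 CPM in mESCs, 43.0 in N2a and 45.1 in NIH/3T3, and Spire2 was at 7.63, 25.6 and 15.1 CPM. The leiomodins Lmod1, Lmod2 and Lmod3 were below 10 CPM in each line. Cobll1, the paralog of Cobl, ran the other way. It was lowest in mESCs at 5.68 CPM (4.43 to 7.18), higher in N2a at 57.4 CPM (53.9 to 61.0) and highest in NIH/3T3 at 194 CPM (187 to 203). Cobl and Cobll1 were thus highest in different lines.

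The formins, which elongate unbranched filaments, were mixed. Diaph1 was at 252 CPM in mESCs, 71.8 in N2a and 112 in NIH/3T3. Fmn2, a formin of oocytes and neurons, was at 56.8 CPM in mESCs and below 1 CPM in both other lines (0.223 and 0.342 CPM, 4 UMIs each), and Fhod3, a formin of muscle sarcomeres, was at 50.4, 0.891 and 11.8 CPM in the same order. These formins were the members of the list besides Whamm (25.4, 11.3 and 9.49 CPM) that passed 2-fold in the direction of Cobl. Fmnl3 (13.8, 37.8 and 43.9 CPM) and Inf2 (1.38, 7.02 and 70.0 CPM) were lower in mESCs. Diaph2 was at 387 CPM in mESCs and 253 in NIH/3T3 but 1.61 in N2a, Daam2 was at 135 CPM in N2a and below 1 CPM elsewhere, and Fmn1 was at 69.2, 6.74 and 233 CPM. Diaph3, Daam1 and Fmnl2 differed less, with 582, 433 and 344 CPM for Diaph3.

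The Arp2/3 complex, which nucleates branched filaments, was present in every line. Actr2 was at 258, 245 and 225 CPM and Actr3 at 193, 248 and 272 CPM in mESCs, N2a and NIH/3T3. None of the subunits Arpc1a, Arpc2, Arpc3, Arpc4, Arpc5 and Arpc5l was 2-fold above or below both other lines in mESCs. Arpc2 was at 232, 514 and 327 CPM and Arpc3 at 127, 178 and 262 CPM in the same order. Arpc1b was not either, but stood at 520 CPM in NIH/3T3 against 93.0 in mESCs and 117 in N2a. Of its activators, Wasf1 was lower in mESCs (34.2 CPM against 105 in N2a and 70.6 in NIH/3T3). Wasl, Wasf2, Wasf3, Jmy and Washc1 lay between, with Wasf3 at 36.5 CPM in mESCs, 78.25 in N2a and 7.95 in NIH/3T3.

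None of the 10 listed partners of Cobl was 2-fold higher in mESCs (0 of 10, where 11.6% of all genes were), and 1 was 2-fold lower (where 11.3% of all genes were). These counts were near the background. That gene, Prmt2, was at 2.68 CPM (1.84 to 3.76) in mESCs, 24.3 in N2a and 16.3 in NIH/3T3. Pacsin2, the broadly expressed syndapin, was at 97.8, 245 and 179 CPM, Pacsin1 at 13.8, 11.03 and 1.03 CPM, and Pacsin3 at 5.19, 0.111 and 13.8 CPM. Dbnl was at 43.8, 52.0 and 54.2 CPM. The calmodulin genes Calm2 and Calm3 and the actins Actb and Actg1 lay within the 2-fold limits, with Actb at 2344 CPM in mESCs, 2903 in N2a and 2487 in NIH/3T3.

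Of 5 counted genes that start within 500 kb of Cobl, all lie on its downstream side or inside it. Ddc, the aromatic amino acid decarboxylase, was at 57.0 CPM in mESCs, 0.835 CPM (15 UMIs) in N2a and 0 UMIs in NIH/3T3, which allows up to 0.315 CPM. The lncRNA 1700042O10Rik was at 4.14 CPM in mESCs against 1 UMI in N2a and 2 UMIs in NIH/3T3. Fignl1, a AAA ATPase of DNA repair, differed less, at 118, 55.8 and 66.8 CPM, and the imprinted adaptor gene Grb10 was highest in NIH/3T3 (44.6, 0.334 and 248 CPM). The lncRNA Gm12002 lies inside Cobl on the opposite strand (chr11:12264489-12339534) and had 22, 4 and 1 UMIs. How strand was used in counting is not given in the sources used here, so reads of Cobl and Gm12002 cannot be fully told apart where they overlap.

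Over mESCs, Cobl varied more than counting alone would give. Cells were thinned to 2000 UMIs each, which left out 276 cells and kept 1861. Cobl then had a mean of 2.37 UMIs per cell, a median of 2, an SD of 1.99 and a highest value of 18. At 0 UMIs stood 325 cells (17.5%), where a Poisson distribution of the same mean gives 9.33%. At 6 or more UMIs stood 120 cells (6.45%), where the Poisson distribution gives 3.40%. Both ends of the distribution were therefore wider than the Poisson one, with no second peak at high counts.

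**Figure D2:**
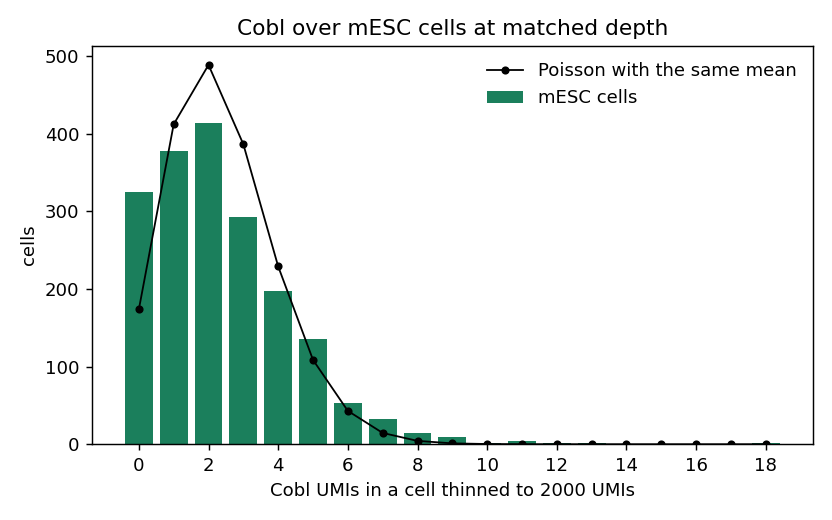
Number of mESCs (bars, vertical axis) by Cobl UMIs in a cell thinned to 2000 UMIs (horizontal axis), with the cells a Poisson distribution of the same mean would give (line). The bar at 0 holds 325 cells where the line gives 174, and the bar at 2 holds 414 where the line gives 488.

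The Fano factor of Cobl, which is the variance over the mean and is 1 for Poisson counts, was 1.68 over the 1861 cells. Its median over genes of at least 50 CPM was 1.07, the 5th to 95th percentiles were 0.992 to 1.27, and 52 genes were higher than Cobl. Within single BC1 sequences of mESCs, the factor ran from 1.16 through a median of 1.61 to 3.43. It was 1.67 when only the variance within BC1 sequences was counted, so differences between aliquots contributed little.

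Expressed as a coefficient of variation beyond Poisson, Cobl varied by 53.4% between cells. The same measure was 44.9% for L1td1, a LINE-derived RNA-binding protein of stem cells, 41.8% for the junction protein Jam2, 41.1% for Zfp42 (Rex1), 40.2% for Esrrb and 34.5% for Dppa5a. Each of these genes of the mESC state varied less than Cobl by this measure. Among 283 genes with a mean of at least 1 thinned UMI, 24 exceeded Cobl and the median was 30.7%.

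Cobl was low in the mESCs that carried transcripts of the 2-cell-like state. This state is a rare and passing condition in stem cell cultures in which genes of the early cleavage embryo, such as the Zscan4 cluster, are transcribed. At least 3 UMIs of a list of 12 such genes (11 of them in the matrices) were held by 82 mESCs, or 3.84%. In those cells Cobl was at 532 CPM (463 to 608), with 213 UMIs, and in the other 2055 cells at 1237 CPM (1217 to 1257), so the level was 43.0% of that elsewhere. Cobl UMIs were found in 35 of the 82 cells (42.7%, 31.8% to 54.1%) against 92.4% (91.1% to 93.5%) of the others. The median was 0 against 5 Cobl UMIs per cell, and the highest were 29 and 53, so the ranges overlapped. Depth differed less, with medians of 4096.5 and 4842 UMIs.

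The level of Cobl was lower in cells with more UMIs of the list. It was 1251 CPM (1231 to 1272) in the 1979 cells with none, 894 (810 to 984) in 76 cells with 1 or 2, 656 (516 to 822) in 24 cells with 3 to 5, 613 (493 to 753) in 30 cells with 6 to 11, and 344 (254 to 456) in 28 cells with 12 or more. Cobl UMIs were held by 1842 of the 1979 cells, 56 of the 76, 16 of the 24, 12 of the 30 and 7 of the 28 in the same order. The intervals of the middle bins overlapped, while those of the outer bins did not. Median depth also fell, from 4800 UMIs in cells with none to 3003.5 in cells with 12 or more. At a matched depth of 2000 UMIs the difference was present, with Cobl at 1221 CPM (1185 to 1258) in 1771 cells without the list's UMIs, 706 (552 to 889) in 51 cells with 1 or 2, and 231 (137 to 365) in 39 cells with 3 or more. In that last bin 76.9% of cells had no Cobl UMI, and in the bin without the list's UMIs 15.3% had none.

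**Figure D3:**
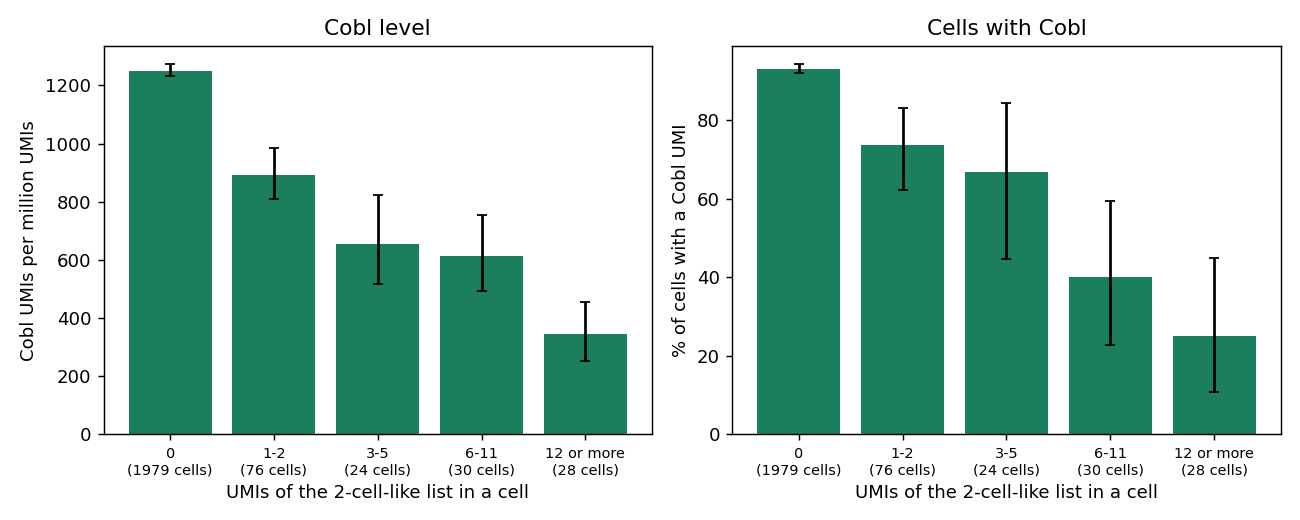
Cobl CPM (left) and percent of cells with a Cobl UMI (right) in mESCs grouped by their UMIs of the 2-cell-like list (horizontal axis, cells per bin below), with exact 95% intervals of counting as error bars. The level goes from 1251 CPM in cells with none to 344 CPM in cells with 12 or more, and the cells with Cobl from 1842 of 1979 to 7 of 28.

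The difference was seen in most aliquots of the culture. Of the 30 BC1 sequences that held such a cell, Cobl was lower in those cells than in the rest of the same BC1 sequence in 28. With 82 cells over 30 BC1 sequences, each of these values rests on few cells. The BC1 sequences are aliquots of 1 culture, so the count is a description and not replicate agreement. N2a had no cell with 3 UMIs of the list (0 cells) and NIH/3T3 had 1. Within the list, Zscan4d was at 512 CPM in the 82 cells and 2.26 CPM in the others. Zscan4c, whose reads are hard to part from its near-identical neighbours, was at 447 and 1.43 CPM. The cells were chosen by UMIs of this list, which fixes such differences, so these values only describe the choice. Tcstv1 had 0 UMIs in the 82 cells and 1 in the others.

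A fall as large as that of Cobl was uncommon among genes, although a lower level in these cells was the usual direction. Of the 4427 other genes of at least 50 CPM in mESCs, only 1209 were higher in these cells. At 50% or less of their level elsewhere were 6.96%, and 138 had a lower ratio than Cobl. Pou5f1, which codes for Oct4, was at 59.9 CPM in the 82 cells and 57.7 in the others. Zfp42 was at 908 CPM against 1332, Dppa5a at 1385 against 1835, and Jam2 at 561 against 588. L1td1 (312 against 624) and Esrrb (165 against 363) were closer to Cobl in their ratio. The share of UMIs from genes of at least 100 kb was 19.6% in the 82 cells and 19.1% in the others. The mitochondrial share was 2.81% against 2.12%, and its part in the result was not tested.

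Genes that varied with Cobl over single mESCs were found from Pearson's r of log2(1 + UMIs) over the 1861 thinned cells. All of these r are small, they share cells, library and thinning, and they are given as descriptions without p. Of the 4427 genes of at least 50 CPM, 39 had r of 0.1 or more, which is 0.881%, and 33 had r of -0.1 or less, which is 0.745%. The median over all genes was 0.0052. Between sets of 16 BC1 sequences, with 876 and 985 cells, all 39 were positive in both and all 33 negative in both, which the choice of these genes over the same cells nearly fixes.

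Kat6b, a histone acetyltransferase, had the highest r with Cobl, at 0.263, with 0.254 and 0.268 in the first and last 16 BC1 sequences. Kat6b was at 1886 CPM in mESCs, 142 in N2a and 91.0 in NIH/3T3. The transcriptional repressor Trps1 followed at 0.211 and the teneurin Tenm3 at 0.186. Both were abundant outside mESCs, with Trps1 at 599, 1110 and 369 CPM and Tenm3 at 543, 1430 and 3.93 CPM in mESCs, N2a and NIH/3T3. Tet1 and Tet2, which oxidise methylcytosine in DNA, had r of 0.170 and 0.137, and Tet1 was at 1189, 6.74 and 5.98 CPM in the 3 lines. The other genes among the 12 highest were Msi2, an RNA-binding Musashi protein (0.164), the oxidoreductase Wwox (0.163), Etl4 (0.159), the microtubule-bound ubiquitin ligase Mid1 (0.157), the polymerase subunit Pola1 (0.151), the SUMO ligase Pias2 (0.141) and the FERM protein Epb41l4a (0.137). The r of Mid1 was 0.0985 with another seed of thinning, so single values of this size carry the error of thinning.

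At the other end stood 5430402O13Rik (-0.213), Popdc3, a popeye domain membrane protein (-0.212), Neto2, an auxiliary subunit of kainate receptors (-0.179), Fbxo15, an F-box gene of undifferentiated cells (-0.171), mt-Co1 (-0.164), Avpi1 (-0.158), Gpbp1l1 (-0.157) and Gm38825 (-0.156). Of these 8 genes, 7 were at least 2-fold higher in the same 82 cells. For 5430402O13Rik, Popdc3, Neto2 and Gm38825 this was fixed by the choice of genes, since they were below 50 CPM elsewhere and passed that minimum only through the 82 cells, and their values are a description. 5430402O13Rik was at 1647 CPM (1524 to 1778) in them and 11.2 CPM elsewhere, Popdc3 at 1328 and 19.6 CPM, Neto2 at 1592 and 30.4 CPM, and Gm38825 at 1200 and 38.8 CPM. Fbxo15 was at 1924 and 365 CPM. Without these cells, r fell in size to -0.0601 for 5430402O13Rik and -0.0236 for Neto2, and remained at -0.105 for Popdc3 and -0.132 for Avpi1.

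**Figure D4:**
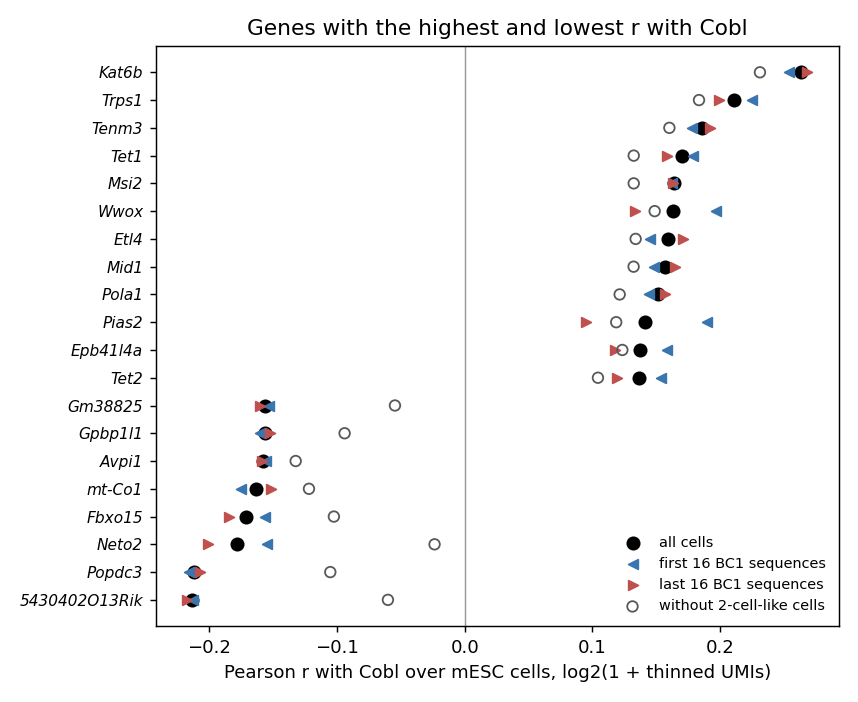
Pearson r with Cobl (horizontal axis) for the 12 genes with the highest and the 8 with the lowest r over 1861 mESCs thinned to 2000 UMIs, in all cells, in the first and last 16 BC1 sequences, and without cells holding 3 or more UMIs of the 2-cell-like list. Kat6b is at 0.263, with 0.254 and 0.268 in the 2 sets and 0.231 without the cells, and Neto2 goes from -0.179 to -0.0236.

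When genes were chosen in one set of BC1 sequences and read in the other, their sign held. The 12 highest genes of the first 16 had a median r of 0.173 there and of 0.129 in the last 16 (0.0477 to 0.268), and all 12 were positive. The 12 highest of the last 16 went from 0.161 to 0.147 (0.0777 to 0.254), again all 12 positive. The 8 lowest genes were negative in the other set in both directions (8 of 8 each), with medians of -0.171 and -0.155. Of all 4427 genes, 2429 were positive in the first 16 and 2484 in the last 16, while 1994 and 1938 were negative. Both sets are aliquots of the same culture and share library and thinning. The held sign is therefore a description and not replicate agreement, for positive and negative genes alike. The minimum level of genes was set over all mESCs, so the sets were not independent in the choice of genes. The overall 8 lowest shared 7 genes with the first list and 6 with the second. Among the overall 8 lowest, 5430402O13Rik, Popdc3, Neto2 and Gm38825 passed that minimum only through the 2-cell-like cells, where Cobl was low. Those cells lay in 30 BC1 sequences, so the negative sign of such genes was nearly fixed in either set and is a description. Of the overall 12 highest, 9 were also among the 12 highest of the first 16 and 8 among those of the last 16.

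In the 82 cells with the list's UMIs, none of the 39 genes with r of 0.1 or more was higher than elsewhere (0 of 39, where 1209 of all 4427 were), and 9 were at 50% or less, where 6.96% of all genes were. Kat6b was at 1245 CPM (1138 to 1360) against 1907, Trps1 at 212 against 612, and Tet1 at 621 against 1208. Of the 33 genes with r of -0.1 or less, 32 were higher in these cells and 23 at least 2-fold, where 2.46% of all 4427 genes were. These genes were picked by their r over the same cells, so the counts describe them and support nothing further. Without the 82 cells, 22 of the 39 genes still had r of 0.1 or more and 12 of the 33 had r of -0.1 or less, and the r of Kat6b was 0.231.

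The genes with positive r were long, like Cobl. The median length on the genome of the 39 genes was 211 kb, and 30 of them (76.9%) spanned at least 100 kb, where 21.2% of all 4427 genes did. The 33 genes with negative r had a median of 49.9 kb, and 30.3% of them spanned at least 100 kb, against a median of 39.2 kb over all genes. They included 4 of the 12 mitochondrial and 5 of the 83 ribosomal protein genes among the 4427. Over all genes, the median r was -0.0097 for 621 genes under 10 kb, -0.00015 for 1198 genes of 10 to 30 kb, 0.0068 for 1669 genes of 30 to 100 kb, 0.0266 for 769 genes of 100 to 300 kb and 0.0347 for 168 longer genes. Across 4425 genes, which are not independent, r with Cobl and log10 of length had a Pearson r of 0.323.

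**Figure D5:**
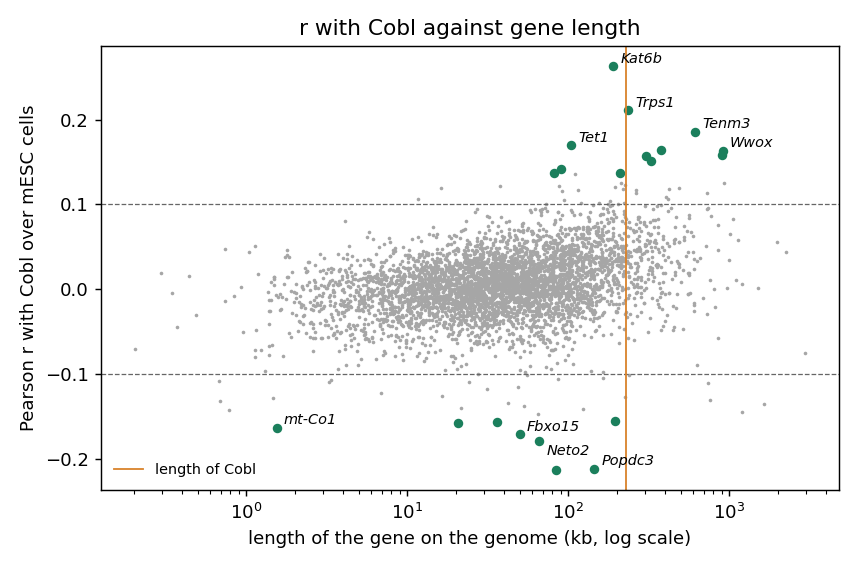
Pearson r with Cobl over mESCs (vertical axis) against the length of each gene on the genome (horizontal axis, log scale), with the 12 highest and 8 lowest genes in green, dashed lines at r of 0.1 and -0.1, and a line at the 228.6 kb of Cobl. Of the 39 genes above 0.1, 30 are at least 100 kb long, and mt-Co1 at -0.164 is among the shortest.

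The share of a cell's UMIs in long genes moved with Cobl in the same way. In cells thinned to 2000 UMIs, Cobl was at 980 CPM (918 to 1045) in the 476 cells with the fewest UMIs of genes of at least 100 kb (up to 338) and at 1406 (1329 to 1485) in the 451 cells with the most (415 and over). The sum over these genes, Cobl included in length but left out of the sum, had r of 0.180 with Cobl. Mitochondrial UMIs went against it (r -0.161), with Cobl at 1363 CPM in the lowest bin and 1001 in the highest. Ribosomal protein UMIs did too (r -0.145), with Cobl at 1383 and 997 CPM. Whether reads in introns were counted is not given in the sources used here, so spliced and unspliced Cobl RNA cannot be told apart.

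After the UMIs of long, mitochondrial and ribosomal protein genes were regressed out of every gene, 18 of the 39 genes still had r of 0.1 or more, and 24 of the 33 genes still had r of -0.1 or less, with a median of -0.134 against -0.132 before. Kat6b was then at 0.215, Trps1 at 0.174, Tet1 at 0.156 and Zfp42 at 0.142. With this regression and without the 82 cells, 8 of the 39 genes were at 0.1 or more, with Kat6b at 0.177 and Zfp42 at 0.115. The median r by length was then nearly flat, at 0.0048 under 10 kb and 0.00965 in genes of 300 kb or more before those cells were left out. Long genes are part of the sum that was regressed out, so the regression itself favours a flat course.

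The gene that shared Cobl's restriction to mESCs most closely, Zfp42, co-varied with it weakly (r 0.119). Cobl was at 964 CPM (873 to 1063) in 211 cells without a thinned Zfp42 UMI, 1184 in 755 cells with 1 or 2, 1194 in 612 cells with 3 or 4, and 1337 (1244 to 1436) in 283 cells with 5 or more. L1td1 had r of 0.106, Jam2 0.0492, Esrrb 0.0352, Pou5f1 0.0187 and Dppa5a -0.0896. Of these genes only Dppa5a was negative. Among the other mESC markers, Nanog (-0.0481) and Klf2 (-0.019) were negative too, while Tdgf1 (0.0132) and Tfcp2l1 (0.032) were positive. The 8 markers had a median r of 0.016, from -0.0896 to 0.1191. The r of Dppa5a was -0.116 without the 2-cell-like cells, -0.0348 after the regression and -0.0219 at 4000 UMIs.

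The summed UMIs of 12 naive pluripotency genes had r of 0.089 with Cobl, which was 0.0312 without Zfp42. These values moved with the settings: at 4000 UMIs the naive list was at 0.201, the naive list without Zfp42 at 0.133, Zfp42 at 0.193 and G2/M genes at 0.102, and without the 82 cells the naive list was at 0.0333. The formative list had r of -0.0463 and the primitive endoderm list -0.0538, but only 1.83% of cells held a thinned UMI of that last list. Of the cell cycle lists, S phase genes had r of -0.0078 and G2/M genes 0.0311, with Cobl at 1120 CPM (1058 to 1186) in the cells with the fewest G2/M UMIs and 1197 (1118 to 1279) in those with the most. Nuclear noncoding RNAs such as Malat1 had r of 0.0757. The list of the 2-cell-like state had r of -0.225, the furthest from 0 of the lists computed. Without the 82 cells it was -0.0992, smaller in size than long genes (0.1965), ribosomal protein genes (-0.152) and mitochondrial genes (-0.1297).

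The 19 nucleators of at least 50 CPM had r between -0.0438 (Fmn1) and 0.0851 (Fmnl2), with a median of 0.0099. None reached 0.1 in size (0 of 19), where 0.881% and 0.745% of all genes did in the 2 directions, so a count of 0 in a list of this size is near the background and is no result about the list. At 4000 UMIs Fmnl2 was at 0.119. The 6 partners had r between -0.0571 (Actb) and 0.016 (Calm3). The neighbours Ddc and Fignl1 had r of 0.0545 and -0.0098.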

How the data were processed

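The authors deposited raw UMI counts per gene and barcode from STARsolo on GRCm39 with GENCODE M30, after splitting reads by BC1 and trimming the TSO, in a matrix for each line and 1 pooled matrix of the same reads. Aligner settings for introns and strand are not given in the sources used here. From the deposited counts, barcodes with a minimum of 1000 UMIs and no more than 20% of them mitochondrial were kept. Doublets within a line were not called. CPM are UMIs summed over cells and scaled to 1000000. For correlations, cells were thinned without replacement to 2000 UMIs and log2(1 + UMIs) was used, and shares of cells were compared at 1000 UMIs. The thinning and correlation steps were tested on simulated data. There, chosen genes followed Cobl fully and cells had no other shared variation, so the test cannot tell such variation from a link to Cobl.

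Genes were named by rule: Cobl, the 12 highest and 8 lowest r, listed actin nucleators and partners of at least 10 CPM in a line, genes starting within 500 kb, and 6 comparators. Other genes were named after their values were seen. Cobl and all lists were chosen with earlier results of these data known. Bins of 2-cell-like UMIs and the regressions were added after seeing the data. Positions came from GENCODE M39 on GRCm39 (32953 of 33565 identifiers matched). Analyses ran in Python 3.11.15 with matplotlib 3.10.9, scipy 1.17.1, numpy 2.4.6 and pandas 2.3.3. Values of some listed genes are not reported here.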

Additional observations from a re-analysis of the deposited data

Results flagged for a closer look

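The pooled matrix held UMIs that the line matrices did not. Outside called cells, those carried by BC1 sequences of N2a included 20 Cobl UMIs, at 158 CPM (96.6 to 244), and those carried by BC1 sequences of NIH/3T3 included 36 Cobl UMIs, at 244 CPM (171 to 338). Both values are far above the 1.11 and 1.28 CPM of the cells of these lines, and these UMIs enter no comparison. Inside cells the same kind of UMIs held 1 Cobl UMI in N2a (3.41 CPM) and 0 in NIH/3T3. At BC1 sequences of mESCs, 90 Cobl UMIs outside cells gave 512 CPM (412 to 630). The cause was not tested.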

How the results depend on the processing

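Values near 0 changed sign: the median r of genes under 10 kb (-0.0097, and 0.0048 as residuals) and of 10 to 30 kb (-0.00015, and 0.0056), and the r of S phase genes (-0.0078, and 0.0410 at 4000 UMIs) and naive genes without Zfp42 (0.0312, and -0.0146 without 2-cell-like cells). The mESC level was 1177 CPM as a mean over cells and 1237 without the 2-cell-like cells, and NIH/3T3 was at 2.89 CPM over all barcodes. The share of cells with Cobl, 65.0% in mESCs at 1000 UMIs, was 82.5% at 2000, 93.9% at 4000 and 90.5% without thinning. In N2a it was 0.491% at 4000, 0.818% without thinning, 0.172% with another seed (0.0430% with the first, from 1 cell) and 0% among cells of the STARsolo calling rule, and in NIH/3T3 0.407% at 4000 and 0.736% without thinning. The 39 genes with r of 0.1 or more became 11 at 1000 UMIs, 142 at 4000, 697 without thinning, 84 in the first 16 BC1 sequences, 23 without 2-cell-like cells, 19 as residuals on long-gene, mitochondrial and ribosomal UMIs and 9 with both. The 33 genes with r of -0.1 or less became 20 at 1000 UMIs, 72 at 4000, 20 by Spearman ranks, 57 in the first 16 BC1 sequences, 14 without 2-cell-like cells, 32 as residuals, 7 with both, and 56 with genes from 20 CPM. The cause was not tested. Cobl in 2-cell-like cells stayed between 482 and 559 CPM with 2 or 5 list UMIs as the limit, under the STARsolo rule, or without the Zscan4 or Usp17l genes. The Fano factor ran from 1.37 at 1000 UMIs to 2.06 at 4000. With 1 sample per line, differences between lines have no replicate check. No paired analysis was possible because each line was 1 sample.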
